A study of Mus musculus with 2 samples.

Results

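The genes described here encode the endothelial basement membrane, the fibrillar collagen matrix and the enzymes that modify and crosslink both. They are 38 genes of the 31053 in the count matrices, taken by symbol and each found once. By role they are 5 chains of collagen IV, 3 multiplexin or transmembrane collagens, 5 fibrillar collagen chains, 7 laminin chains, 4 linkers and proteoglycans, 4 other adhesive glycoproteins, 4 lysyl oxidases, and 6 intracellular enzymes and chaperones of collagen. The libraries came from liver endothelium of 2 adult C57BL/6 mice, 1 carrying the sph allele of Gimap5 on one chromosome (sph/+) and 1 carrying it on both (sph/sph). The protein made from this gene binds GTP and is known for keeping lymphocytes alive. Both animals carried the allele, and no mouse without it was analysed here. Live cells were sorted for CD31, an endothelial surface protein, and against CD45, a leukocyte protein, and 1 library per mouse was made with the 10x Genomics 3' kit v3. The study asked what Gimap5 does for the identity of liver sinusoidal endothelial cells (LSECs). With 1 mouse per genotype, library and genotype cannot be told apart, no test between them was possible, and each difference below describes these libraries.

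A basement membrane is a thin sheet on which endothelium sits. Laminin trimers, each of an alpha, a beta and a gamma chain, and collagen IV trimers form its networks, and nidogens and perlecan (Hspg2) link them. The sinusoids of a healthy liver are known for fenestrated endothelium with little organised basement membrane, whereas capillaries with continuous endothelium rest on a complete one. Collagen chains are hydroxylated and folded inside the cell, and lysyl oxidases crosslink them outside it.

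Levels are counts of unique molecular identifiers (UMIs) summed over cells and scaled to the usual fixed total, as CPM. A 3' library counts 1 tag per RNA molecule whatever its length, so no level was divided by gene length. Intervals are 95% exact Poisson intervals for levels and exact binomial intervals for ratios and shares, and they cover counting error only. The sph/+ library gave 10980 kept cells of 13136 barcodes and the sph/sph library 11321 of 16386. Endothelial-like cells numbered 9508 in sph/+ and 10740 in sph/sph, with 43152342 and 51551531 UMIs and medians of 4300 and 3913 UMIs per cell. Pecam1, the CD31 gene, stood at 727 CPM in sph/+ against 1045 in sph/sph, and Ptprc, the CD45 gene, had 3 UMIs in each. Gimap5 itself stood at 106 and 104 CPM, and a 3' tag does not read the allele. The libraries shared 30 barcodes as deposited and 19 among kept cells.

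The endothelial-like cells fell into different clusters in the 2 libraries, and this stands beside every value over all cells. LSEC-like cells, with at least 9 of the 12 LSEC markers detected, made up 97.5% of the sph/+ endothelial-like cells (9275) and 7.50% of those of sph/sph (805). Continuous vascular-like cells numbered 6 in sph/+ and 7840 in sph/sph, lymphatic-like cells 3 and 1042, cycling endothelial cells 147 and 714, and endothelial cells without a name 77 and 339. The summed level of the 12 LSEC markers was 21357 CPM in sph/+ against 1357 in sph/sph, and that of the 15 continuous vascular markers was 4502 and 20249 CPM, with no gene of either list at 0. The part of this change of cell types in the values over all cells was not tested. Comparisons within cells of a like class are given further on, and markers still differed between the libraries in those cells. The 38 genes were kept out of the genes used for clustering.

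Over all endothelial-like cells the sph/sph library carried 9107 CPM of the 38 genes and the sph/+ library 4255 CPM. A gene was counted as measured at 20 CPM or more in either library, and as different at 2-fold or more after 1 CPM was added to both levels. Of the 26 measured genes 11 were higher in sph/sph, 3 were lower and 12 lay within 2-fold. The same rule called 11.0% of all 7465 measured genes higher and 10.5% lower. The median log2 ratio of sph/sph over sph/+ was 0.70 over the measured matrix genes and -0.07 over all measured genes. The composition differed as well: in sph/+ the largest shares of the matrix UMIs came from Tinagl1 (24.8%), Hspg2 (14.2%), Col4a1 (13.8%) and Col13a1 (8.95%), and in sph/sph from Col4a1 (28.9%), Col4a2 (13.6%), Hspg2 (11.0%) and Tinagl1 (7.23%).

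**Figure D1:**
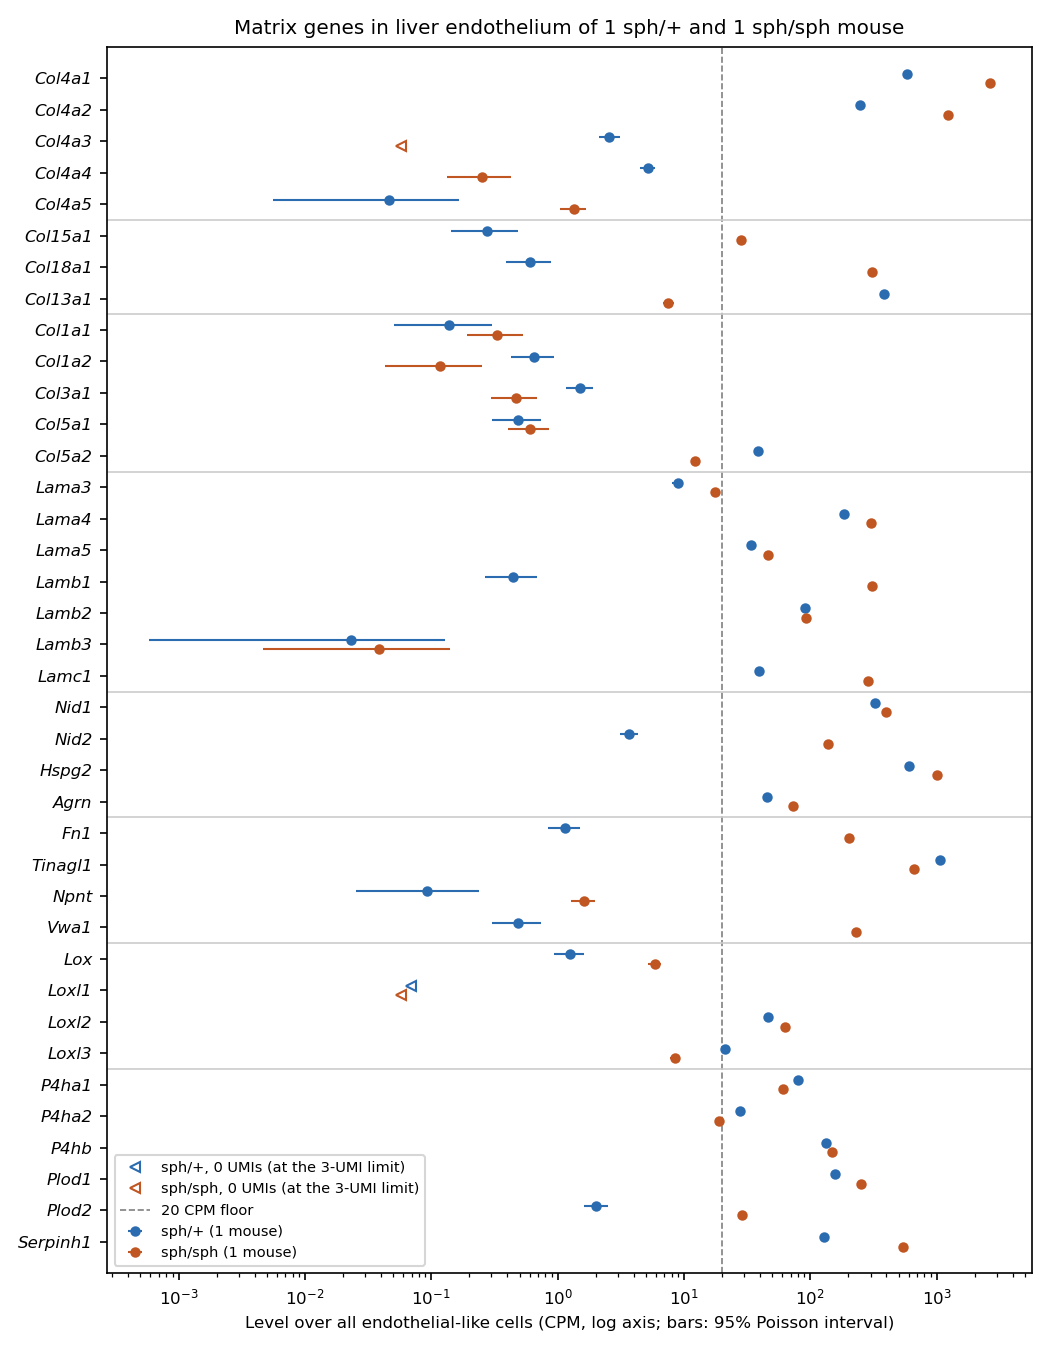
Level of each of the 38 matrix genes over all endothelial-like cells of the sph/+ mouse (blue) and the sph/sph mouse (orange), in CPM on a log axis, with 95% Poisson intervals; open triangles mark the limit that 0 UMIs allow, grey lines part the roles and the dashed line is the 20 CPM floor. Lamb1, Col18a1, Vwa1 and Fn1 lie at or near 1 CPM in sph/+ and above 200 CPM in sph/sph, while Col13a1 goes from 381 to 7.51 CPM.

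Both major chains of the collagen IV network were higher in the sph/sph library. Col4a1 stood at 587 CPM in sph/+ (95% interval 580 to 594) against 2631 in sph/sph (2617 to 2645), a ratio of 4.48 (4.42 to 4.54). Col4a2, its partner in the common heterotrimer, stood at 246 CPM and 1238 CPM, a ratio of 5.03 (4.93 to 5.13). The minor chains, which build the networks of specialised basement membranes such as that of the kidney glomerulus, stayed under the floor. Col4a3 had 111 UMIs in sph/+ against none in sph/sph, at least 44.2-fold lower against the limit of 3 UMIs. Col4a4 had 224 UMIs in sph/+ against 13 in sph/sph. Col4a5 went the other way, with 2 UMIs in sph/+ against 69 in sph/sph, of which 76.8% lay in lymphatic-like cells. Thus the major chains and Col4a5 had more UMIs in sph/sph, and Col4a3 and Col4a4 had more in sph/+.

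The 2 pairs of collagen IV genes that differed in opposite directions are each arranged head to head. In GENCODE vM21 on GRCm38, Col4a1 lies on the minus strand of chromosome 8 (chr8:11198423-11312826) and Col4a2 on the plus strand (chr8:11312805-11449287), so that their annotated starts overlap by 22 bases. Col4a4 (chr1:82448423-82586849, minus strand) and Col4a3 (chr1:82586921-82722059, plus strand) are parted by 71 bases. Tags at the 3' ends of either pair lie far from the shared starts. The run chr8:11312801-11312830 of the plus strand, from RefSeq's promoter table for GRCm38.p6, is shown because it holds the starts of both major chains, and its capitals mark the annotated overlap.
Col4a1-Col4a2 start overlap: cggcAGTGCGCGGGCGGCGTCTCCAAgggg

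The pair of major chains kept a near-fixed ratio of UMIs across clusters while their levels varied. In the 6 largest LSEC-like clusters of sph/+ there were 2.10 to 2.51 Col4a1 UMIs per Col4a2 UMI. The smaller endothelial clusters of sph/+ ran from 1.58 (0.942 to 2.69) to 3.53 (2.44 to 5.20). In the sph/sph clusters the ratio lay between 1.66 (1.49 to 1.87), in a small cluster led by Nupr1, Dcn and Ccl7, and 2.56 (2.30 to 2.85), in a cluster led by Inhba, Rspo3 and Wnt9b. Levels of Col4a1 over the same sph/sph clusters ran from 490 CPM, in a cluster led by Vwf and Fbln5, to 4194 CPM, in one led by Apln, Aplnr and Sparcl1. The lowest of these was below the 633 CPM of hepatocyte-like cells of the same library. In sph/+ clusters Col4a1 ran from 86.5 to 682 CPM.

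Among the multiplexins and the transmembrane collagen, 2 genes were higher and 1 lower in sph/sph. Col18a1, a basement membrane collagen whose C-terminal fragment is endostatin, stood at 0.603 CPM in sph/+ (0.394 to 0.883) against 306 in sph/sph (302 to 311), a ratio of 509 (347 to 779). Col15a1, the second multiplexin, stood at 0.278 CPM and 28.2 CPM, from 12 and 1455 UMIs. Col13a1, a transmembrane collagen of cell adhesion sites, stood at 381 CPM in sph/+ (375 to 387) against 7.51 in sph/sph (6.78 to 8.29), 50.7-fold lower (45.9 to 56.3). In sph/+ the 7 LSEC-like clusters held between 88.2 and 547 CPM of Col13a1, the highest in the cluster led by Wnt2 and Rspo3. In sph/sph 49.1% of the remaining Col13a1 UMIs lay in LSEC-like cells, which gave 7.06% of that library's UMIs. Col18a1 was in turn highest in the cluster led by Igfbp3, Cxcl12 and Sema3g, at 763 CPM, and the highest of the sph/+ clusters reached 1.31 CPM.

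The upstream sequences of the multiplexin and the transmembrane collagen that differed most are shown side by side. They come from RefSeq's table for GRCm38.p6, which had 29 entries for 24 of the 38 genes, and both genes lie on the minus strand. Capitals mark matches, on either strand, to 5 short motifs: the GC box GGGCGG, the CCAAT box, the TATAA motif, the ACGTG motif and the AGATAA motif. In windows of 250 bases before the start, GGGCGG was found in 32.7% of all 32851 entries and in 18 of the 29 entries of the matrix genes, CCAAT in 33.8% and 8, TATAA in 22.8% and 4, ACGTG in 16.6% and 7, and AGATAA in 9.99% and 0. The Col18a1 run, chr10:77166549-77166780, leaves out the bases that overlap an annotated exon and holds 3 GC boxes and 1 CCAAT box, and the Col13a1 run, chr10:61979109-61979358, holds 1 TATAA. A match is a description of these letters and not a site in use.
Col18a1: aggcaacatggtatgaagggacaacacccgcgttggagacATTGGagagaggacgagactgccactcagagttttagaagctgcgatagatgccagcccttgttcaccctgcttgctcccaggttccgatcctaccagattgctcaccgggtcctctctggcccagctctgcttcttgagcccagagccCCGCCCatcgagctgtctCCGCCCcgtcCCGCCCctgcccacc
Col13a1: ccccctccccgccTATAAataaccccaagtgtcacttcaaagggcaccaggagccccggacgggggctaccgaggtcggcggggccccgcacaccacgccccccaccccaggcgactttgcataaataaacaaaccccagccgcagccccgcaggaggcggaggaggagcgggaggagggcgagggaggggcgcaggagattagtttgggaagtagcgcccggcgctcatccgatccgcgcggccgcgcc

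The fibrillar collagens, the banded fibres of interstitial and scar matrix, were near 0 in the endothelial-like cells of both libraries. Col1a1 had 6 UMIs in sph/+ against 17 in sph/sph, Col1a2 had 28 and 6, Col3a1 had 65 and 24, and Col5a1 had 21 and 31. Only Col5a2, a chain of the regulatory collagen V, passed the floor, at 38.5 CPM in sph/+ against 12.2 in sph/sph, 3.14-fold lower (2.87 to 3.45). Its level depended on the cluster: it was 230 CPM in a sph/+ cluster led by Adgrg6 and Nrg1 and 171 CPM in the sph/sph cluster led by Vwf and Fbln5. Of the 65 Col3a1 UMIs of sph/+, 36 lay in the 40 cells of the cluster led by Inhba, Rspo3 and Wnt9b, and 11 of the 65 in 1 cell. Cells marked by stellate or fibroblast genes, 940 of sph/+ and 5 of sph/sph, were left out of the endothelial-like cells. Their cluster also had all 12 LSEC markers detected. Its sph/+ cells held the fibrillar collagens at a sum of 49.9 CPM, against 39.8 in LSEC-like cells of sph/+. The low levels of stellate or fibroblast markers in the cells kept were in part set by leaving these cells out. The 13 stellate and fibroblast markers summed to 144 CPM in sph/+ against 353 in sph/sph, 11 of them were under 20 CPM in both, Pdgfrb was at 0.255 and 0.0776 CPM and Dpt had no UMI in sph/sph. Dcn alone gave 18.2 and 311 CPM of these sums, and it stood at 1151 CPM in the lymphatic-like cells.

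Laminin chains differed by chain, not as a set. Lamb1, the beta chain of the main endothelial laminins, stood at 0.440 CPM in sph/+ (0.265 to 0.688), from 19 UMIs, and 307 CPM in sph/sph (302 to 312), a ratio of 697 (446 to 1158). Lamb2, the alternative beta chain, stood at 90.5 CPM and 91.8 CPM, a ratio of 1.01 (0.972 to 1.06). Lamc1, the common gamma chain, stood at 39.0 CPM and 285 CPM, a ratio of 7.31 (6.95 to 7.69). The endothelial alpha chains lay within 2-fold, Lama4 at 187 and 305 CPM and Lama5 at 34.3 and 46.0 CPM. The epithelial chains stayed under the floor, Lama3 with 387 and 915 UMIs and Lamb3 with 1 and 2. Lamb2 UMIs thus outnumbered those of Lamb1 in sph/+, 3905 to 19, and Lamb1 UMIs those of Lamb2 in sph/sph, 15821 to 4730.

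The sequence before the Lamb1 start, chr12:31265043-31265233 on the plus strand of GRCm38.p6 and from the same RefSeq table, is shown because this gene had the highest ratio of the 26. It holds 2 GC boxes and 1 CCAAT box, in capitals. The Col18a1 run shown above holds both kinds of motif, but another Col18a1 entry, chr10:77113706-77113955, holds neither.
Lamb1: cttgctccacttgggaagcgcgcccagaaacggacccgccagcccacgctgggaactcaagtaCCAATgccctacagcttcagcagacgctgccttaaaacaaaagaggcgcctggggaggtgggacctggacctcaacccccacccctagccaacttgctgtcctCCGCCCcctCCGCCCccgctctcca

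The balance of the 2 endothelial alpha chains differed by cluster in both libraries. Lama4 is known from the basement membrane of all blood vessels, and Lama5 is known to vary with the kind of vessel. In sph/sph there were 14.2 Lama4 UMIs per Lama5 UMI (12.7 to 15.9) in the cluster led by Apln, 4.69 (4.27 to 5.15) in the cluster led by Rgcc and Lpl, and 2.63 (2.32 to 2.99) in the cluster led by Igfbp3, Cxcl12 and Sema3g. The LSEC-like cluster of sph/sph gave 1.23 (1.08 to 1.40) and the lymphatic-like cluster 39.1 (29.7 to 52.8), with only 51 Lama5 UMIs. In sph/+ the ratio was 1.95 (1.71 to 2.22) in the LSEC-like cluster led by Wnt2 and Rspo3 and 4.03 (3.35 to 4.87) in the one led by Adgrg6 and Nrg1. It was 6.35 to 9.84 in the other 4 of the 6 largest LSEC-like clusters. Clusters were chosen from expression, so these ratios are descriptions.

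**Figure D2:**
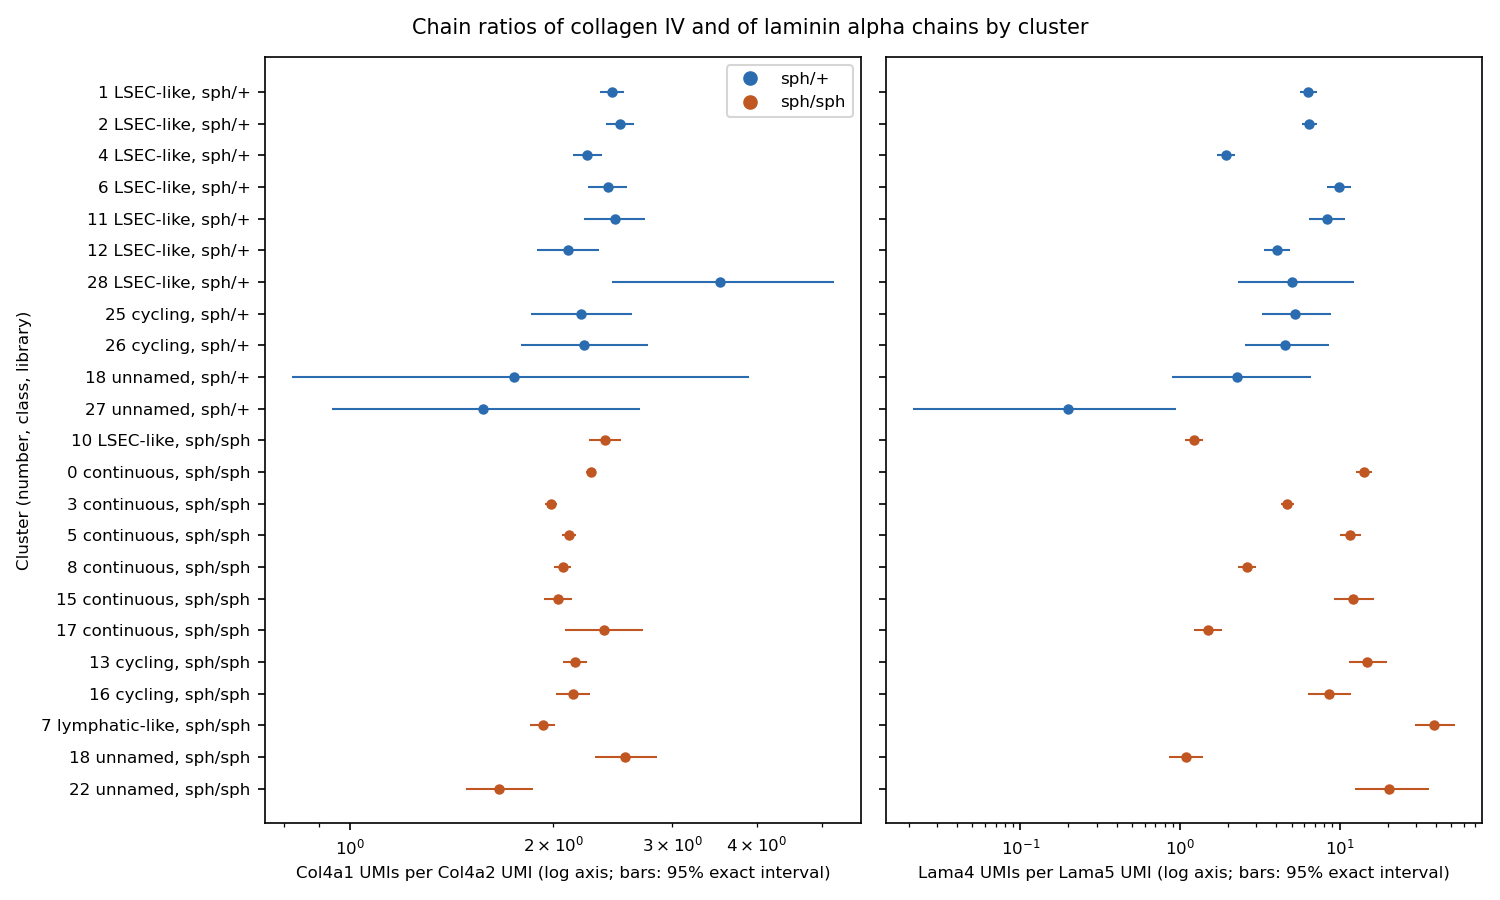
UMI ratios of chain pairs in each endothelial cluster with at least 25 cells of a library (blue sph/+, orange sph/sph), on log axes with 95% exact intervals. Left, Col4a1 per Col4a2 stays between 1.58 and 3.53 in every cluster; right, Lama4 per Lama5 in sph/sph clusters runs from 1.09 to 39.1.

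Of the linkers and proteoglycans, Nid2 was higher in sph/sph and 3 genes lay within 2-fold. Nid2 stood at 3.68 CPM in sph/+ against 139 in sph/sph, a ratio of 37.8 (32.3 to 44.6), while its paralogue Nid1 stood at 323 and 394 CPM. Hspg2, the core protein of perlecan, stood at 604 and 1003 CPM, and Agrn, the core protein of agrin, at 45.8 and 73.5 CPM. One nidogen was thus near-absent from the sph/+ library and the other abundant in both.

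The adhesive glycoproteins included the most abundant member of the set in sph/+. Tinagl1, a secreted protein of the basement membrane, stood at 1056 CPM in sph/+ against 658 in sph/sph, 1.60-fold lower (1.58 to 1.63). Vwa1, a perlecan-binding protein of basement membranes, stood at 0.487 CPM and 230 CPM, a ratio of 474 (310 to 765). Fn1, the gene of fibronectin, stood at 1.14 CPM and 201 CPM (198 to 205), a ratio of 177 (134 to 240). The sph/sph UMIs of these genes lay in different cells. Of the Vwa1 UMIs of sph/sph, 86.6% lay in continuous vascular-like cells, at 332 CPM there and 8.93 CPM in lymphatic-like cells. Of the Fn1 UMIs, 87.8% lay in lymphatic-like cells, at 875 CPM there and 12.4 CPM in continuous vascular-like cells. Without lymphatic-like and unnamed endothelial cells the log2 ratio of Fn1 was 2.69 in place of 6.57. Fn1 was then under the 20 CPM floor in both libraries, so this difference was not called. Its level in continuous vascular-like cells was also below the 86.7 CPM of hepatocyte-like cells of sph/sph. Lymphatic-like cells had a median of 9880 UMIs per cell, more than 2-fold that of their library, and gave 20.2% of its endothelial UMIs from 9.70% of the cells. Npnt, the integrin ligand nephronectin, had 4 UMIs in sph/+ against 83 in sph/sph, 54 of them in the cluster led by Vwf and Fbln5.

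The lysyl oxidases did not follow the basement membrane chains. Loxl2, which crosslinks collagen IV, stood at 46.2 CPM in sph/+ against 62.6 in sph/sph, and Loxl3 at 21.1 and 8.50 CPM, 2.48-fold lower (2.21 to 2.79). Both had most of their sph/sph UMIs in lymphatic-like cells, 52.4% for Loxl2 and 56.8% for Loxl3. Without lymphatic-like and unnamed endothelial cells Loxl2 was at a log2 ratio of -0.37 in place of 0.43, so its sign rested on those cells. Lox, a crosslinker of fibrillar collagen and elastin, had 54 and 303 UMIs and stayed under the floor over all cells, and stood at 99.8 CPM (84.8 to 117) in the cluster led by Vwf and Fbln5. Loxl1 had no UMI in the endothelial-like cells of either library, a limit of 0.0695 CPM in sph/+ against 0.0582 in sph/sph.

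Among the intracellular enzymes and chaperones 2 of 6 genes were higher in sph/sph and none was lower. Serpinh1, the collagen chaperone HSP47, stood at 129 CPM in sph/+ against 539 in sph/sph, a ratio of 4.18 (4.06 to 4.30). Plod2, a lysyl hydroxylase of collagen telopeptides, stood at 2.02 and 28.6 CPM, a ratio of 14.2 (11.4 to 17.8). Plod1, which hydroxylates helical lysines, stood at 156 and 253 CPM. The subunits of prolyl 4-hydroxylase differed little: P4hb stood at 133 and 149 CPM, P4ha1 at 79.7 and 61.3 CPM and P4ha2 at 28.0 and 19.1 CPM. The chaperone and both lysyl hydroxylases thus stood higher in sph/sph over all cells, Plod1 by less than 2-fold. The catalytic prolyl hydroxylase subunits P4ha1 and P4ha2 stood lower over all cells by less than 2-fold. In LSEC-like cells alone P4ha2 stood higher in sph/sph, at 27.7 and 51.4 CPM, and P4ha1 was near even, at 79.9 and 80.5 CPM. P4ha2 stood lower in cycling cells (25.8 and 19.5 CPM) and in the cluster led by Inhba, Rspo3 and Wnt9b (78.3 and 44.3 CPM).

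The 12 genes under the floor had at most 17.7 CPM in either library, the value of Lama3 in sph/sph. Loxl3, at 21.1 CPM in sph/+, lay just above it. Lama3, an alpha chain known from epithelia, stood at 113 CPM in the cluster led by Vwf and Fbln5 and 55.7 CPM in the LSEC-like cluster of sph/sph, so that its low level over all cells came with a high one in few cells. Lox and Npnt were highest in that same Vwf cluster, which held 265 cells of sph/sph.

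By cluster, matrix genes took a larger share of RNA in the continuous vascular-like cells of sph/sph than in any other endothelial class. The 38 genes gave 0.428% of UMIs in LSEC-like cells of sph/+ (0.426 to 0.430), 0.498% in LSEC-like cells of sph/sph (0.491 to 0.506) and 1.12% in continuous vascular-like cells of sph/sph. Lymphatic-like cells of sph/sph gave 0.524%, and cycling cells 0.392% in sph/+ and 0.942% in sph/sph. The continuous class was not uniform: its clusters led by Apln, by Rgcc, by Cxcl10, by Igfbp3 and by Mcm genes gave 1.04% to 1.25%, and the cluster led by Vwf and Fbln5 gave 0.422%. The cluster led by Igfbp3 had 2 artery markers, Cxcl12 and Sema3g, and no continuous vascular marker among its 10 leading genes, and without it the class gave 1.12% from 6893 cells. The cluster led by Vwf and Fbln5 had the lowest Col4a1 and Hspg2 levels of the sph/sph clusters, 490 and 265 CPM, and the highest Lamb2 level, 289 CPM. For 3 of the 26 genes, Col18a1, Lamb1 and Lamc1, every sph/sph cluster lay above every sph/+ cluster, and this held for 1.54% of all measured genes. For Lamb1 the lowest 3 of these sph/sph clusters, at 18.9, 21.0 and 23.0 CPM, were below the level of 45.2 CPM in hepatocyte-like cells of the same library. None of the 26 had every sph/+ cluster above every sph/sph cluster, which held for 1.39% of all measured genes.

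**Figure D3:**
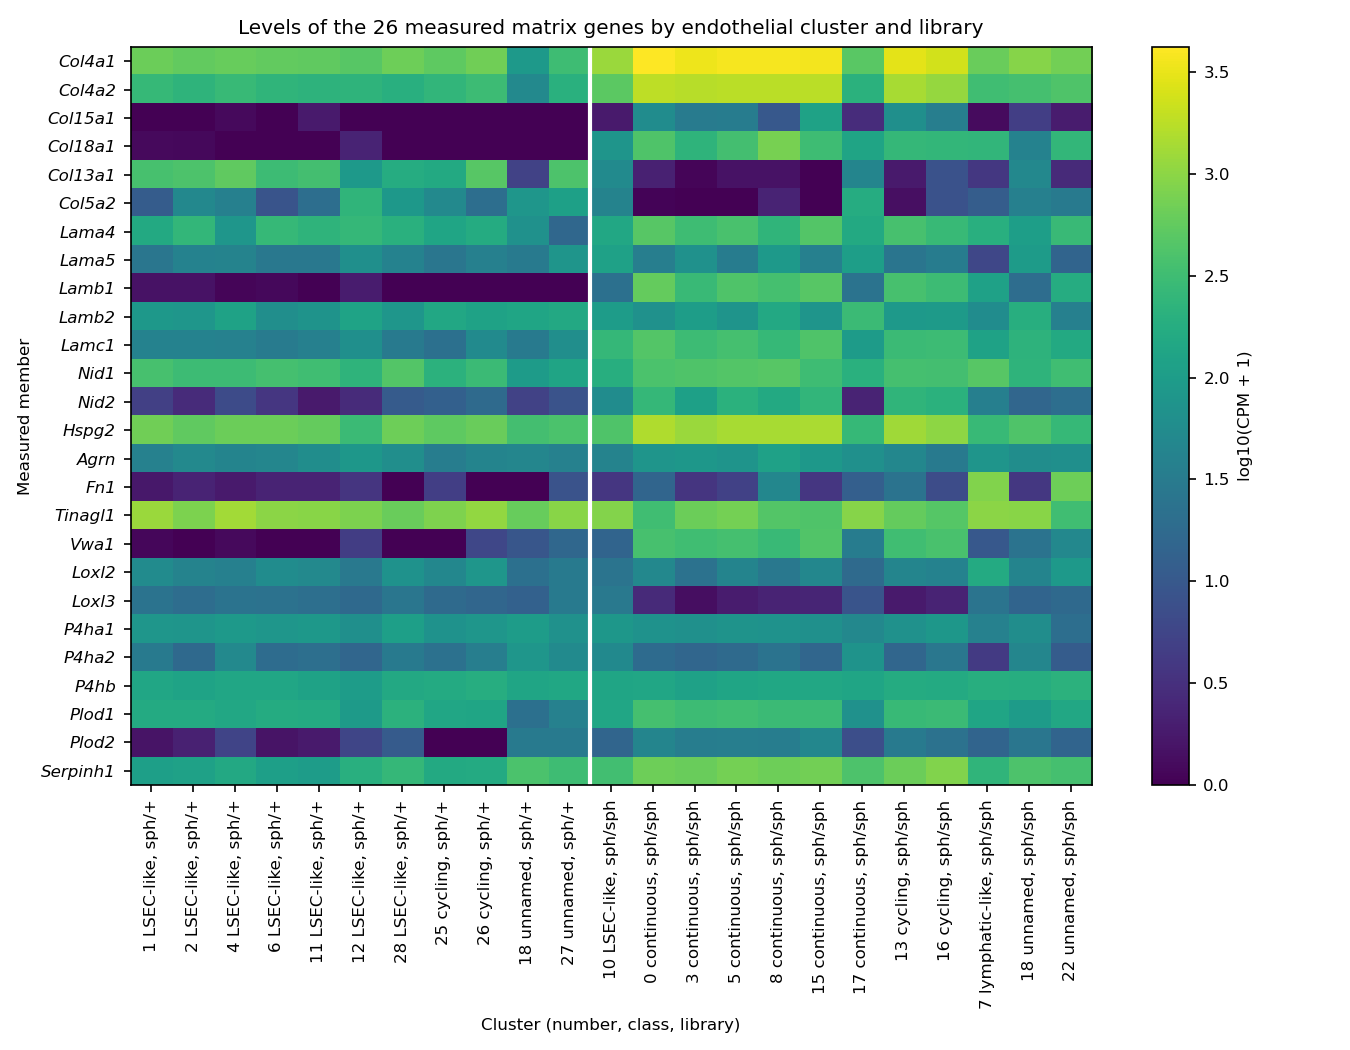
Levels of the 26 measured matrix genes as log10 of CPM plus 1, one column per endothelial cluster with at least 25 cells of a library; the white line parts sph/+ clusters on the left from sph/sph clusters on the right. The Lamb1 and Col18a1 rows are dark in all sph/+ columns, and the Fn1 row is bright only in the lymphatic-like column and in the column of cluster 22, led by Nupr1 and Dcn.

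Cells of a like class could be set side by side between libraries in 3 cases. The first is the LSEC-like class, in which sph/+ cells came from 7 clusters and nearly all sph/sph cells from 1, of 800 cells, with 10 of 12 LSEC markers detected. That cluster was itself lower in LSEC markers: over the class Stab2 stood at 1364 CPM in sph/+ against 297 in sph/sph, Clec4g at 3735 and 520 CPM and Fcgr2b at 2236 and 29.9 CPM, and Cd34 at 27.4 and 344 CPM. Of the 23 matrix genes measured there, 9 were higher in sph/sph, 1 was lower and 13 lay within 2-fold, with 10.8% of all genes higher and 10.7% lower. The median log2 ratio was 0.19, and -0.05 over all genes. A comparison added after the data were seen kept only clusters whose leading genes held no more markers of another list than LSEC markers. It left 6799 and 802 cells, with 10 genes higher and 2 lower beside 11.4% and 10.9% of all genes. The sph/sph cluster of 800 cells passed although its 10 leading genes held no LSEC marker. The step thus changed mainly the sph/+ cells and did not examine the sph/sph ones.

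In LSEC-like cells of sph/sph the collagen IV chains differed less than over all cells, and several chains differed in the same direction. Col4a1 stood at 591 CPM in sph/+ against 1205 in sph/sph, a ratio of 2.04 (1.97 to 2.10), and Col4a2 at 247 and 504 CPM. Lamc1 stood at 39.2 and 252 CPM, Lama5 at 34.3 and 119 CPM, Serpinh1 at 126 and 337 CPM, and Nid2 at 3.30 and 56.9 CPM. Lamb1, at 0.362 and 20.9 CPM, and Col18a1, at 0.193 and 75.8 CPM, were counted as higher, from 15 and 76 UMIs and from 8 and 276 UMIs. Col13a1 was the gene that was lower, at 387 and 52.2 CPM, 7.41-fold. Nid1, at 328 and 186 CPM, and Hspg2, at 608 and 418 CPM, stood lower by less than 2-fold, although both stood higher in sph/sph over all cells. Col5a2 and Loxl3, lower in sph/sph over all cells, were not lower in LSEC-like cells. Col5a2 stood there at 38.0 and 40.4 CPM, and Loxl3 at 21.3 and 28.3 CPM, a ratio of 1.33 (1.07 to 1.63). In cycling cells Col5a2 was lower, at 39.5 and 3.04 CPM, and Loxl3 was under the floor.

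Free RNA from other cells bears on these levels. Hepatocyte-like cells of sph/sph held Lamb1 at 45.2 CPM (23.4 to 79.0), and hepatocyte-marked cells of sph/+ had no Lamb1 UMI in 109 cells. The Lamb1 level of the sph/sph LSEC-like cells was below the hepatocyte-like one, and is not read as expression by those cells. For Col18a1 the hepatocyte-like level, 75.4 CPM (46.1 to 116), is no such background: hepatocyte-marked cells of sph/+ held Col18a1 at 22.2 CPM (12.1 to 37.3), in a library whose LSEC-like cells stood at 0.193 CPM. Whether free RNA gave part of the 276 Col18a1 UMIs was not tested. The other 7 genes that were higher stood above the hepatocyte-like level, with Col4a1 at 633 CPM there, Col4a2 at 226 CPM, Lamc1 at 60.3 CPM, Serpinh1 at 106 CPM, Nid2 at 7.54 CPM, Lama3 at 11.3 CPM and Lama5 at 0. For Col4a1 (591 CPM in sph/+ and 1205 in sph/sph) and Col4a2 (247 and 504 CPM) that level was large beside the difference between the libraries. The part of free RNA in the differences of these 7 genes was not tested.

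Cycling endothelial cells, 147 of sph/+ and 714 of sph/sph, gave the second comparison. Of 25 measured matrix genes 14 were higher in sph/sph and 2 lower, where 9.26% of all genes were higher and 15.4% lower, and the median log2 ratio was 1.07 against -0.19 over all genes. Col4a1 stood at 580 and 2733 CPM, Hspg2 at 558 and 1169 CPM and Serpinh1 at 160 and 724 CPM. Lamb1 and Col18a1 had no UMI in the sph/+ cells and 1348 and 996 UMIs in those of sph/sph, at least 141-fold and 104-fold higher against a limit of 3 UMIs. LSEC markers were much lower in the cycling cells of sph/sph, with Clec4g at 2172 and 17.2 CPM, Fcgr2b at 1272 and 1.52 CPM and Stab2 at 894 and 18.2 CPM. The continuous vascular markers Ly6c1, at 0 and 1258 CPM, and Cd34, at 24.2 and 765 CPM, were higher there. The cycling cells of the 2 libraries thus differed in type, and the part of this in the matrix gene ratios was not tested.

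The third comparison is the cluster led by Inhba, Rspo3 and Wnt9b, with 40 cells of sph/+ and 223 of sph/sph. Rspo3 and Wnt9b are known in liver from central vein endothelium, and they stood there at 4068 and 709 CPM in sph/+ and 1940 and 550 CPM in sph/sph. Other markers differed between its cells of the 2 libraries, with Ly6c1 at 0 and 839 CPM, Fcgr2b at 239 and 2.18 CPM, Stab2 at 128 and 10.2 CPM and Dnase1l3 at 177 and 24.0 CPM. Of 24 measured genes 10 were higher in sph/sph and 3 lower, with 15.1% and 13.8% of all genes. The 3 lower were Col3a1, at 148 and 13.8 CPM, Col5a2, at 78.3 and 37.1 CPM, and Lox, from 6 and 2 UMIs. Col4a1 stood at 86.5 CPM in sph/+, from 21 UMIs, and 913 CPM in sph/sph, a ratio of 10.6 (6.87 to 17.1), and Lamc1 at 28.8 and 218 CPM, a ratio of 7.56 (3.62 to 19.0). Serpinh1 stood at 400 and 403 CPM, and Hspg2 at 346 and 416 CPM. Vwa1, at 23.3 CPM in sph/sph, was counted among the 10 and lay below the hepatocyte-like level of 60.3 CPM. The hepatocyte-like level of Col4a1 was 633 CPM, and the part of free RNA in the differences of this cluster was not tested. Here 1 UMI of sph/+ was worth 4.12 CPM, the level of Col13a1, so its ratio of 11.6 had an interval of 2.02 to 467.

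**Figure D4:**
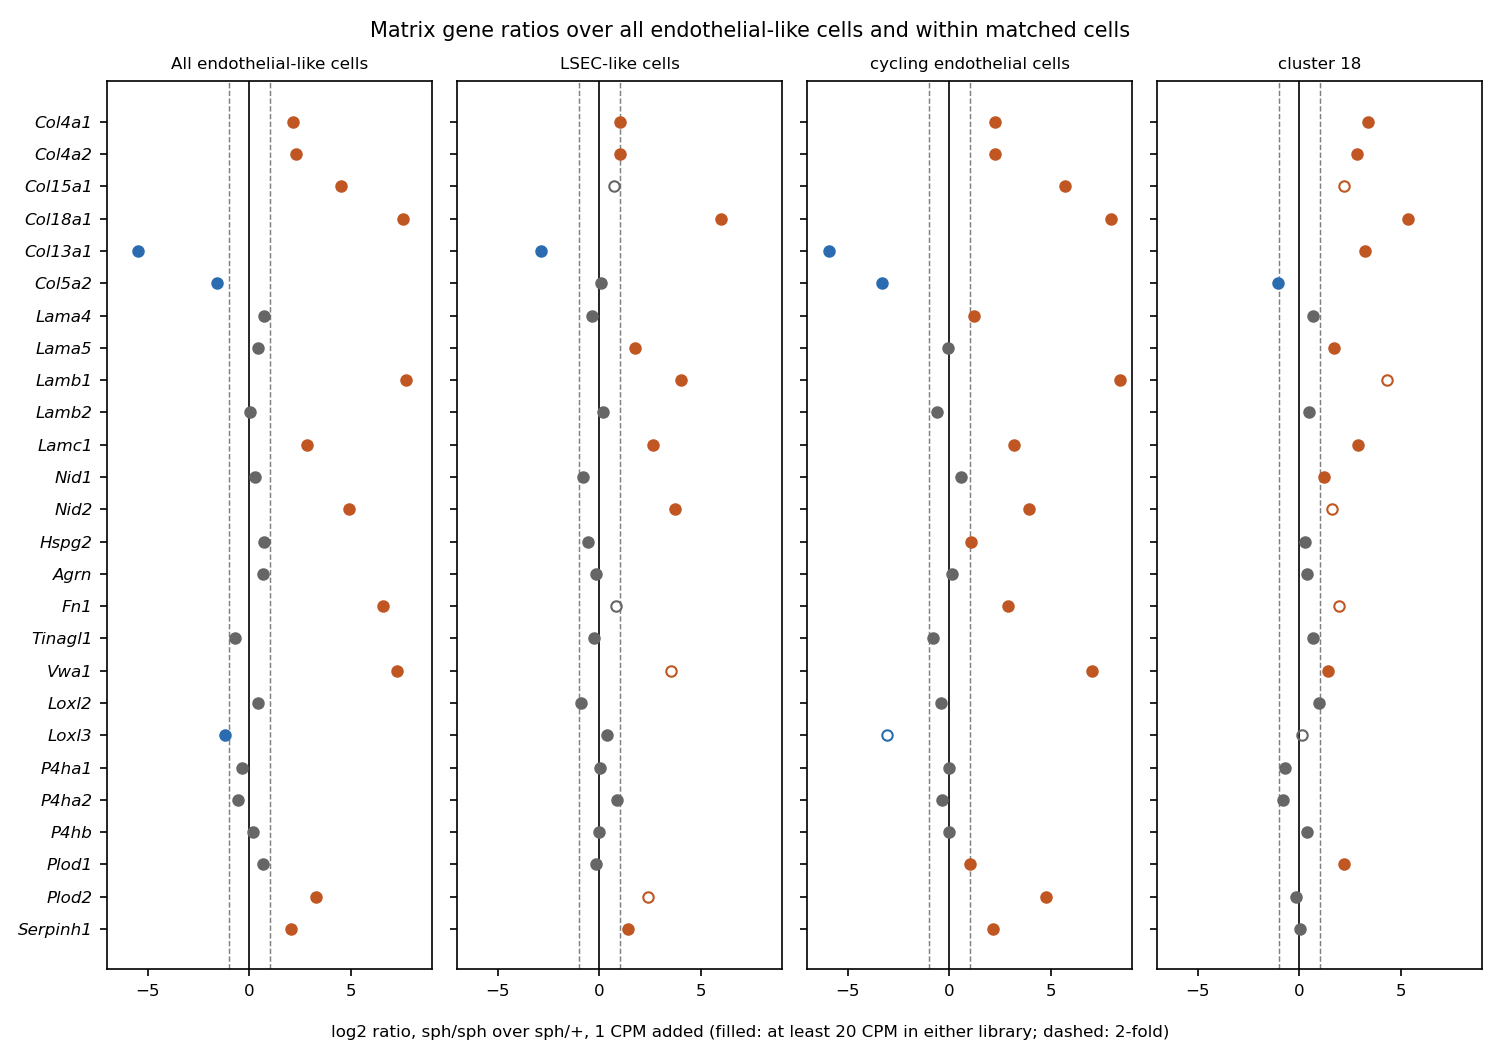
Log2 ratio of sph/sph over sph/+ for the 26 genes measured over all cells, for all endothelial-like cells and within LSEC-like cells, cycling endothelial cells and cluster 18 (led by Inhba, Rspo3 and Wnt9b); filled points reached 20 CPM in either library, dashed lines mark 2-fold, and colour marks at least 2-fold higher (orange) or lower (blue). Col4a1, Col4a2, Col18a1 and Lamc1 are orange and filled in all 4 panels.

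At equal depth, with each cell thinned to 2000 UMIs and shallower cells left out (9095 of 9508 cells kept in sph/+ and 9840 of 10740 in sph/sph), the differences appeared also as shares of cells. In sph/+ 66.8% of cells held Col4a1 (65.8 to 67.8), against 92.4% in sph/sph (91.9 to 92.9). For Col4a2 the shares were 38.7% and 82.9%. Without thinning these shares were 86.3% and 97.4% for Col4a1. Lamb1 was seen in 0.0990% and 42.9% of cells, Col18a1 in 0.0990% and 39.1%, Vwa1 in 0.110% and 35.4%, and Lamc1 in 7.81% and 42.7%. Col13a1 was seen in 50.5% and 1.24%, and Tinagl1 in 86.0% and 57.8%. The 2 chains of collagen IV occurred in the same thinned cell in 26.7% of LSEC-like cells of sph/+, 53.4% of LSEC-like cells of sph/sph and 90.8% of continuous vascular-like cells. Lama4, Lamb1 and Lamc1 together, chains of 1 endothelial laminin trimer, occurred in 16.0% of 7069 continuous vascular-like cells and 0.552% of LSEC-like cells of sph/sph. In LSEC-like cells of sph/+ Lamb1 alone was seen in 0.0789%, too few for a count of cells with all 3 chains.

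Free RNA sets a background for such shares. Hepatocyte-like cells of sph/sph, with a median of 1790 UMIs, should lack most of these genes, and 22.7% of 119 held a Col4a1 UMI and 6.72% a Lamb1 UMI. Their cluster had no LSEC marker detected, but it had 2 pan-endothelial and 3 continuous vascular markers detected. Whether these UMIs came from free RNA or from mixed cells was not tested. The sph/sph endothelial shares of both genes were above that background, at unequal depth. In sph/+ only 12 hepatocyte-like cells were kept and the larger classes of other types carried LSEC markers, so no such background could be given there. In the LSEC-like cells of sph/sph, thinned, 3.45% held Lamb1, below the hepatocyte-like share, and 10.2% held Col18a1. For Col18a1 no background is given, since 11.9% of the hepatocyte-marked cells of sph/+ held it too. Fn1, which hepatocytes make, was seen in 17.6% of the hepatocyte-like cells and 8.55% of sph/sph endothelial-like cells, a share not above that of hepatocytes, whereas it was seen in 64.0% of lymphatic-like cells.

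**Figure D5:**
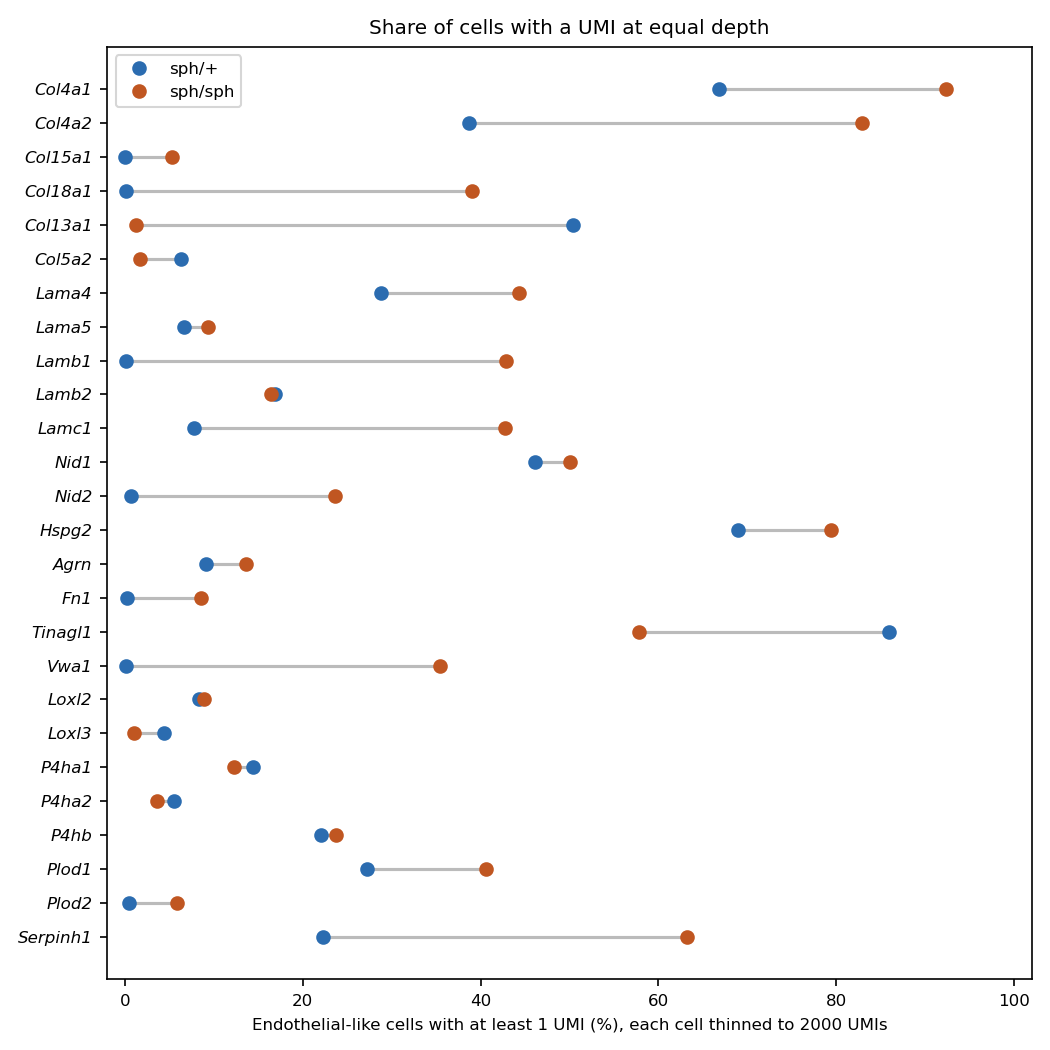
Share of endothelial-like cells with at least 1 UMI of each measured matrix gene, in percent, after thinning each cell to 2000 UMIs (blue sph/+, orange sph/sph, 1 mouse each; grey lines join the values of a gene). The longest lines are those of Col13a1, from 50.5% to 1.24%, Col4a2, from 38.7% to 82.9%, and Lamb1, from 0.0990% to 42.9%.

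Other genes of matrix biology, in lists that hold none of the 38, were counted by the same rule. Of 22 other matrix chains 6 were measured, with 4 higher and 1 lower in sph/sph, among them Tnc, the adhesion-modulating tenascin C (0.116 and 22.3 CPM), Fbn1, the microfibril protein fibrillin-1 (16.8 and 90.1 CPM), and Bgn, the proteoglycan biglycan, which was lower (438 and 87.5 CPM). Of 15 measured collagen-processing genes 6 were higher and none lower, among them Bmp1, a procollagen C-proteinase (0.718 and 56.7 CPM), Fkbp10, a collagen chaperone (1.39 and 75.4 CPM), and Sparc, a collagen-binding protein (1810 and 5166 CPM). Of 12 measured matrix receptors 7 were higher and 1 lower, led by the integrin chains Itga2 (0.510 and 26.9 CPM), Itgb4 (1.48 and 29.3 CPM), Itga6 (55.3 and 605 CPM) and Itga3 (2.13 and 21.5 CPM), of which Itga3, Itga6 and Itgb4 belong to laminin receptors. Of 11 measured proteases and inhibitors 7 were higher and 1 lower, led by Plat, the tissue plasminogen activator (4.45 and 129 CPM), and Mmp15, a membrane-bound metalloproteinase (3.41 and 96.9 CPM). These shares stand beside the 11.0% and 10.5% of all measured genes that were higher and lower.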

How the data were processed

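The files held raw UMI counts per gene and barcode that the authors deposited with no normalization. The submitters' processing notes name Cell Ranger 3.0 and the build mm10, and the matrix header, per the file headers, names software 3.1.0. The annotation release is not given in the sources used here.

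Barcodes with at least 500 genes, at least 1000 UMIs and at most 15% mitochondrial UMIs were kept. Scrublet (scanpy 1.11.5) scored 12304 sph/+ and 13094 sph/sph barcodes. Its automatic threshold marked 1 barcode per library, so the highest scores at a rate of 0.8% per 1000 barcodes, ties included, were removed, 10.8% and 13.5%. Both libraries were clustered together without integration, on 2000 variable genes without the 38 members, with 30 principal components, 15 neighbours and leidenalg 0.10.2 at resolution 1. Cells were named from marker lists, with cut-offs set after the clusters were seen. Python 3.11.15, numpy 2.4.6, scipy 1.17.1, and for TMM scaling edgeR 4.0.16, were used. The scripts were tested on simulated data.

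The members, lists and the call rule were chosen with earlier results of these data known. All members are accounted for, with values for each measured one. From each related list at most the 4 genes with the largest ratio are named. The alternatives changed the cells summed, the scaling, the floor, the added CPM, the threshold, the clustering and the thinning depth.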

Additional observations from a re-analysis of the deposited data

Results flagged for a closer look

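Cells outside the comparisons held fibrillar matrix RNA. In 18 mesothelial-marked cells of sph/+, which also had all 12 LSEC markers detected, Col1a1 stood at 913.6 CPM, Col1a2 at 1136 CPM, Col3a1 at 2383 CPM, Col5a1 at 65.85 CPM and Loxl1 at 152.3 CPM. Loxl1 had no UMI in the endothelial-like cells of either library.

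For 7 genes the log2 ratio of sph/sph over sph/+ had opposite signs in cells of different classes, with 95% counting intervals of the ratios on opposite sides of 1, and the difference between classes was not tested. Col13a1 was at 3.26 in the cluster led by Inhba, Rspo3 and Wnt9b, where sph/+ had 1 UMI, at -2.87 in LSEC-like cells and at -5.94 in cycling cells. Lama4 was at 1.2 in cycling cells and -0.36 in LSEC-like cells, and Lamb2 at -0.59 and 0.19. Nid1 was at 0.57 in cycling cells, 1.23 in the cluster led by Inhba, Rspo3 and Wnt9b, and -0.81 in LSEC-like cells. Hspg2 was at 1.07 in cycling cells and -0.54 in LSEC-like cells. Tinagl1 was at 0.66 in the cluster led by Inhba, Rspo3 and Wnt9b, -0.27 in LSEC-like cells and -0.79 in cycling cells. Plod1 was at 1.04 in cycling cells, 2.19 in that cluster and -0.17 in LSEC-like cells.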

How the results depend on the processing

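No paired analysis was possible because each genotype had 1 mouse, and for the same reason no replicate could be left out. Of the 26 measured genes 25 kept the sign of their log2 ratio under all 14 alternatives for the values over all cells. The exception was Loxl2, at 0.43, which was at -0.30 without lymphatic-like cells and to -0.37 without lymphatic-like and unnamed endothelial cells, the second of these chosen after seeing the data. The count of genes higher stayed within 1.5 times of 11 under each, and the count of genes lower went from 3 to 1 with a floor of 50 CPM, which leaves fewer genes measured. With 5 CPM added, Loxl3 was at -0.95 and no longer 2-fold lower, and Lamb1 was at 5.84 in place of 7.74. Over all kept cells, other types included, Fn1 was at 3.63 in place of 6.57 and Col18a1 at 6.10 in place of 7.58, and Hspg2 passed 2-fold, at 1.03, without lymphatic-like and unnamed cells. The share of UMIs from the 38 genes depended on the clusters. With each library clustered alone it was 0.439% in LSEC-like cells of sph/+, 0.995% in cycling cells, 0.552% in lymphatic-like cells and 0.456% in unnamed cells of sph/sph, and 0.394% in unnamed cells of sph/+. At resolution 0.5 it was 0.490% in LSEC-like, 0.998% in cycling and 0.519% in lymphatic-like cells of sph/sph, and 0.358% in unnamed cells of sph/+. Without the continuous vascular-like cluster led by Igfbp3, an alternative added after seeing the data, that class stood at 1.12%. The median difference in the share of cells with a UMI was 5.34 percentage points at 2000 UMIs, 2.92 at 1000 UMIs and 8.58 with no thinning. For genes under the floor, levels rest on few UMIs and their differences were not called.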
